A study of Mus musculus with 8 samples.

Results

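The enzymes of sialylation and glycan sulfation described here are 9 mouse genes, St6gal1, St3gal1, St3gal2, St3gal4, Chst1, Chst11, Neu1, Cmas and Gne, of 19084 genes measured. They were chosen by symbol in the array's probe annotation, from a list of names drawn up when results of these arrays, among them a fall of St6gal1 with LPS, were already known. The only measured value in the rule was the mean level over the arrays, which decided between probes of the same gene and mattered for Neu1, the only member with more than 1 probe. The 9 genes had 10 probes of 26423, and all 9 reached a normalized intensity of 50 on both arrays of at least 1 group.

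RNA came from RAW264.7, a mouse macrophage-like line, in 4 groups of 2 single-colour arrays (Phalanx OneArray): shDab2 cells with LPS, shDab2 cells with PBS, shLuc cells with LPS and shLuc cells with PBS. All groups were stable lines made by lentiviral infection and kept under puromycin, with an shRNA against the endocytic adaptor Dab2 (shDab2) or against luciferase (shLuc), and per the methods they received 100 ng/ml LPS, the endotoxin sensed by TLR4, or PBS for 6 h. Only 1 Dab2 shRNA, clone B, was put on arrays, so an effect of the knockdown and any other difference between these lines cannot be told apart. Neither the labels nor the methods say whether replicates were grown separately, and the p-values reflect no more than array-to-array spread, which may be technical.

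Sialic acids are acidic sugars at the ends of the glycans that coat macrophages. They are made in the cytosol by a pathway that Gne opens, are activated to CMP-sialic acid by Cmas, and are attached in the Golgi by sialyltransferases that differ in linkage and acceptor. Sialidases such as Neu1 remove them. Sulfotransferases such as Chst1 and Chst11 add sulfate to galactose or to chondroitin chains, and Siglecs, galectins and selectins read the finished glycans during leukocyte traffic and in the tuning of immune signals.

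Deposited intensities were background-subtracted but not brought to a common level, with medians from 20 to 37 and 75th percentiles from 209 to 319 over the 8 arrays. They were quantile-normalized, 50 was added and the log2 was taken, so for dim genes the log2 fold change understates the ratio of intensities. Below, intensities are normalized values without the added 50. A ratio to a group with no array at 50 or more is given as a bound, computed against 50. The shRNA target Dab2 was dim: 39.1 and 34.8 in shDab2 cells with LPS against 52.2 and 72.4 in shLuc cells with LPS, and 59.1 and 76.0 in shDab2 cells with PBS against 91.1 and 88.1 in shLuc cells with PBS. Neither difference passed the test (log2 fold change -0.36, adjusted p = 0.058 from limma with LPS, and -0.25, adjusted p = 0.26 with PBS). By Western blot, the authors report less Dab2 protein in shDab2 than in shLuc cells, which these RNA values do not measure. Of 7 measured macrophage markers 6 reached 50 in every group and Mertk did not (2.4 to 21.1), while none of 9 fibroblast and epithelial markers reached 50. The summed level of 5 lymphocyte markers was 141.0 to 219.5 in shDab2 cells with LPS, 112.2 to 115.1 in shDab2 cells with PBS, 135.1 to 157.1 in shLuc cells with LPS and 112.4 to 129.6 in shLuc cells with PBS, with Cd3e at 51.9 to 102.8, Cd79a at 39.8 to 101.6 and Cd3d, Ms4a1 and Nkg7 at -0.9 to 9.1. Cd79a was called higher with LPS in shDab2 cells (86.6 ± 21.2 with LPS and 43.2 ± 4.86 with PBS, SD, n = 2 each; log2 fold change 0.54, adjusted p = 0.0082). The part of these markers in the results was not tested.

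With LPS, members moved in both directions in each line. In shDab2 cells 3 members were called higher (St3gal1, St3gal4 and Chst11), 5 lower (St6gal1, Chst1, Neu1, Cmas and Gne) and 1 not (St3gal2), where a call is an adjusted p under 0.05 from limma over all probes. In shLuc cells 2 were higher (St3gal1 and Chst11), 4 lower (St6gal1, Chst1, Cmas and Gne) and 3 not. Of all genes, 13.4% were called higher and 18.0% lower with LPS in shDab2 cells, and 11.6% and 15.7% in shLuc cells. Without normalization between arrays, which shifted the median of all genes by -0.1, 2 members were higher and 6 lower in shDab2 cells. Here and below, the shares of all genes are those with normalization, so counts without it have no share beside them. The median log2 fold change of the members was -0.31 in shDab2 cells and -0.07 in shLuc cells, against -0.002 and -0.004 over all genes. Because the genes were named with results in view, nothing is read from these counts beyond the values themselves. In these bulk samples fewer cells that express a gene and less RNA per cell cannot be told apart.

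**Figure D1:**
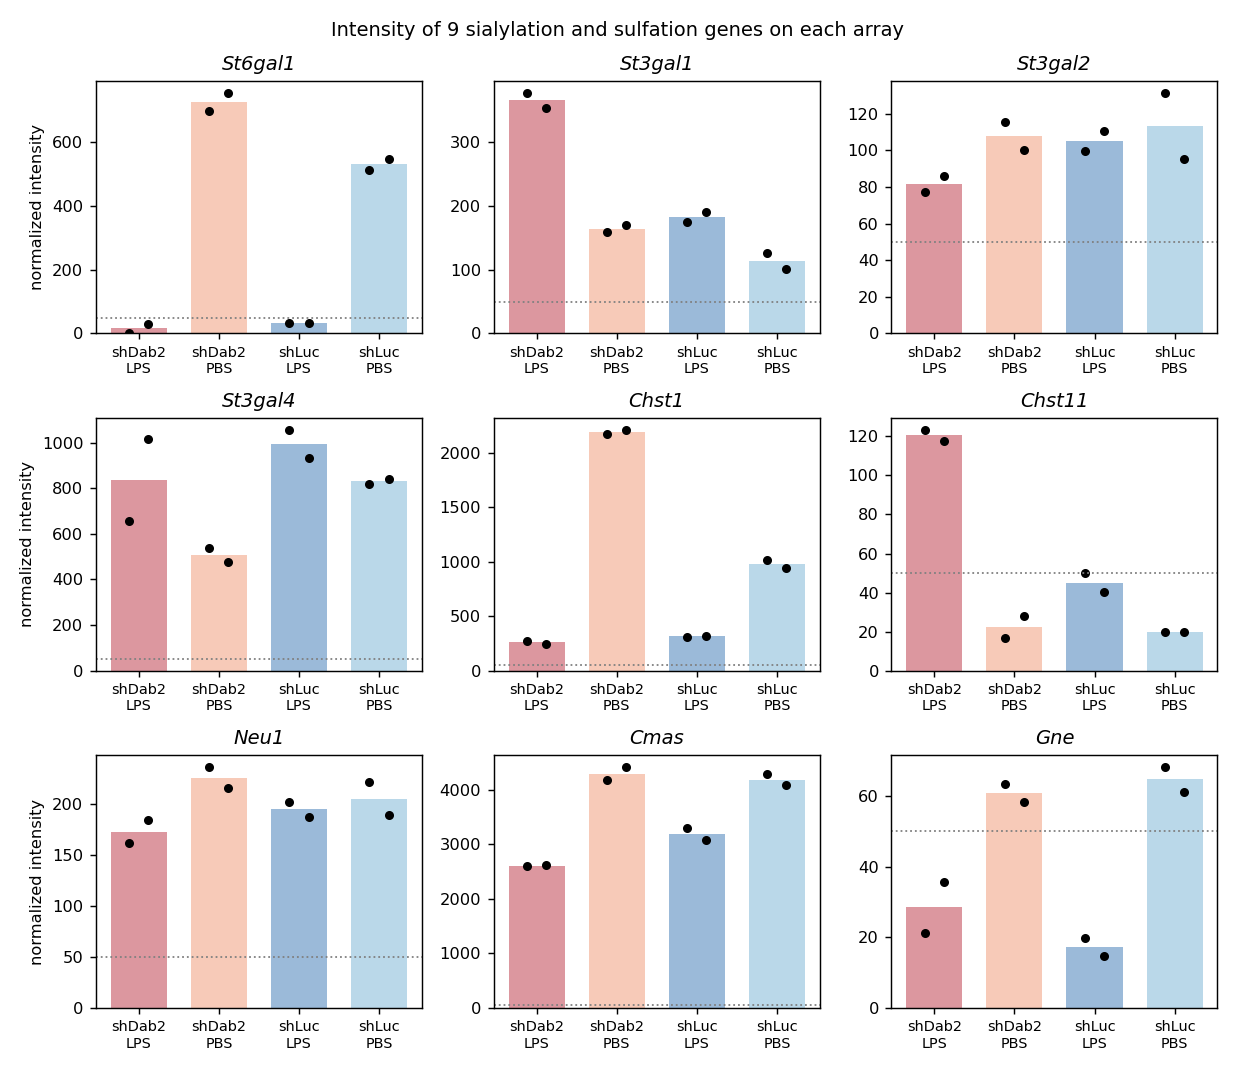
Normalized intensity (linear axis from 0, its range set for each gene) of the 9 members in the 4 groups. Dots are arrays, bars are means of 2 arrays and the dotted line marks 50. St6gal1 lay at 2.5 to 34.2 on all arrays with LPS and at 512 to 753.2 on all arrays with PBS.

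Gne and Cmas, the first enzyme of sialic acid synthesis and the enzyme that activates the finished sugar, both fell with LPS in both lines. Gne (chr4:44034075-44084177 of GRCm38) had 21.1 and 35.8 in shDab2 cells with LPS against 63.5 and 58.5 with PBS, and 19.9 and 14.6 in shLuc cells with LPS against 68.2 and 61.3 with PBS. Every array with LPS lay under 50 and every array with PBS above it. The log2 fold change was -0.51 (SE 0.11, adjusted p = 0.0057 from limma) in shDab2 cells and -0.77 (SE 0.11, adjusted p = 0.00041) in shLuc cells, and Gne was at least 1.22-fold and at least 1.29-fold lower. Without shDab2 PBS replicate 1 the change in shDab2 cells was -0.47 and just missed the threshold (adjusted p = 0.0501).

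Cmas (chr6:142756686-142775714) had 2600.8 and 2616.5 in shDab2 cells with LPS against 4177.2 and 4412.8 with PBS. In shLuc cells it had 3300.2 and 3082.6 with LPS against 4282.8 and 4088.1 with PBS. The groups with LPS did not overlap those with PBS, and the replicates lay close together. Cmas was 1.65-fold lower with LPS in shDab2 cells (log2 fold change -0.71, SE 0.058, adjusted p = 2.5e-06 from limma) and 1.31-fold lower in shLuc cells (-0.39, SE 0.058, adjusted p = 0.00044). Both calls held under each alternative processing and each array left out.

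Among the sialyltransferases the change was not in 1 direction. St6gal1 (chr16:23224729-23360350), which adds to the galactose ends of N-glycans the form of sialic acid linkage that CD22 binds, had 2.5 and 29.0 in shDab2 cells with LPS against 697.6 and 753.2 with PBS. In shLuc cells it had 34.2 and 33.6 with LPS against 512 and 546.9 with PBS. All 4 arrays with LPS lay under 50, where levels are poorly measured, and all 4 with PBS lay at 512 or more, so the groups were far apart. St6gal1 was at least 14.5-fold lower in shDab2 cells and at least 10.6-fold lower in shLuc cells. The fitted log2 fold changes were -3.59 (SE 0.15) and -2.79 (SE 0.15), given as a description because this fall was known when the gene was named.

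St3gal1 (chr15:67102875-67176946), which caps O-glycans with sialic acid, moved the other way. It had 376.5 and 353.8 in shDab2 cells with LPS against 158.4 and 169.6 with PBS, and 174.5 and 191.0 in shLuc cells with LPS against 125.5 and 101.1 with PBS. The groups did not overlap in either line. The rise was 2.23-fold in shDab2 cells (log2 fold change 0.96, SE 0.091, adjusted p = 8.4e-06 from limma) and 1.61-fold in shLuc cells (0.52, SE 0.091, adjusted p = 0.0014).

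St3gal4 (chr9:35046576-35116864), which sialylates the N-acetyllactosamine ends from which selectin ligands are built, rose with LPS in shDab2 cells. It had 657.2 and 1017 with LPS against 536.2 and 476.8 with PBS in that line, and 1055.2 and 933.8 against 819.5 and 841.7 in shLuc cells. The arrays did not overlap, but those of shDab2 cells with LPS lay far from each other. The log2 fold change was 0.65 (SE 0.15, adjusted p = 0.0062 from limma) in shDab2 cells and 0.24 (SE 0.15, adjusted p = 0.31) in shLuc cells. The size in shDab2 cells depended on single arrays, with 0.94 without shDab2 LPS replicate 1 and 0.35 without replicate 2, both called (adjusted p = 5.32e-05 and 0.021). The call was lost without normalization (0.26, adjusted p = 0.26), with a robust variance (adjusted p = 0.06) and without shDab2 PBS replicate 2 (0.57, adjusted p = 0.051). The change in shLuc cells passed without shDab2 LPS replicate 1 or 2, with its estimate unchanged at 0.24. Those arrays enter that comparison only through the shared estimate of spread.

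St3gal2 (chr8:110919743-110974058), which acts on glycolipids and O-glycans, was dim but above 50 on every array. It had 77.1 and 86.2 in shDab2 cells with LPS against 115.6 and 100.2 with PBS, and 99.4 and 110.6 in shLuc cells with LPS against 131.2 and 95.2 with PBS. The groups overlapped in shLuc cells and lay apart in shDab2 cells, and neither difference passed (log2 fold change -0.26, adjusted p = 0.14, and -0.07, adjusted p = 0.77 from limma). Without normalization, which shifted the median of all genes by -0.10, the value in shDab2 cells was -0.53 and passed (adjusted p = 0.0029).

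Neu1 (chr17:34931253-34937297), the lysosomal sialidase, showed a small fall in shDab2 cells that depended on single arrays. Its brighter probe had 161.0 and 184.4 with LPS against 235.6 and 215.0 with PBS in shDab2 cells, and 201.9 and 186.9 against 221.4 and 188.4 in shLuc cells, where the groups overlapped. The log2 fold change was -0.31 (SE 0.092, adjusted p = 0.028 from limma) in shDab2 cells and -0.06 (adjusted p = 0.75) in shLuc cells. In shDab2 cells the call was lost without shDab2 PBS replicate 1 (-0.25, adjusted p = 0.19) or 2 (-0.36, adjusted p = 0.053), without shDab2 LPS replicate 1 (-0.23, adjusted p = 0.17) and with the mean of both probes (-0.15, adjusted p = 0.29). The second probe lay between 12 and 23.8 on all arrays. Without normalization the shLuc value also passed (-0.28, adjusted p = 0.043).

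The sulfotransferases Chst1 and Chst11 went in opposite directions. Chst1 (chr2:92599632-92615252), which sulfates galactose on keratan sulfate and related chains, had 275.9 and 241.9 in shDab2 cells with LPS against 2170.7 and 2209.9 with PBS. In shLuc cells it had 312.2 and 320.2 with LPS against 1014.4 and 946.2 with PBS. The lines lay closer to each other with LPS than with PBS, and no groups overlapped. Chst1 was 8.46-fold lower with LPS in shDab2 cells (log2 fold change -2.86, SE 0.068, adjusted p = 1e-10 from limma) and 3.1-fold lower in shLuc cells (-1.49, SE 0.068, adjusted p = 4.2e-08). The authors also list Chst1 as lower with LPS in both lines, so these p-values are given as a description.

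Chst11 (chr10:82984440-83195904), which sulfates chondroitin, had 123.2 and 117.8 in shDab2 cells with LPS against 16.6 and 27.8 with PBS. In shLuc cells it had 49.8 and 40.2 with LPS against 19.8 and 19.8 with PBS. The shDab2 arrays with LPS were the only ones above 50. Chst11 was at least 2.41-fold higher with LPS in shDab2 cells (log2 fold change 1.24, SE 0.11, adjusted p = 4.7e-06 from limma). In shLuc cells the log2 fold change was 0.44 (SE 0.11, adjusted p = 0.012), with both groups under 50, and it missed the threshold without shLuc PBS replicate 1 or 2 (adjusted p = 0.061 and 0.06) or shLuc LPS replicate 1 (0.37, adjusted p = 0.082).

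**Figure D2:**
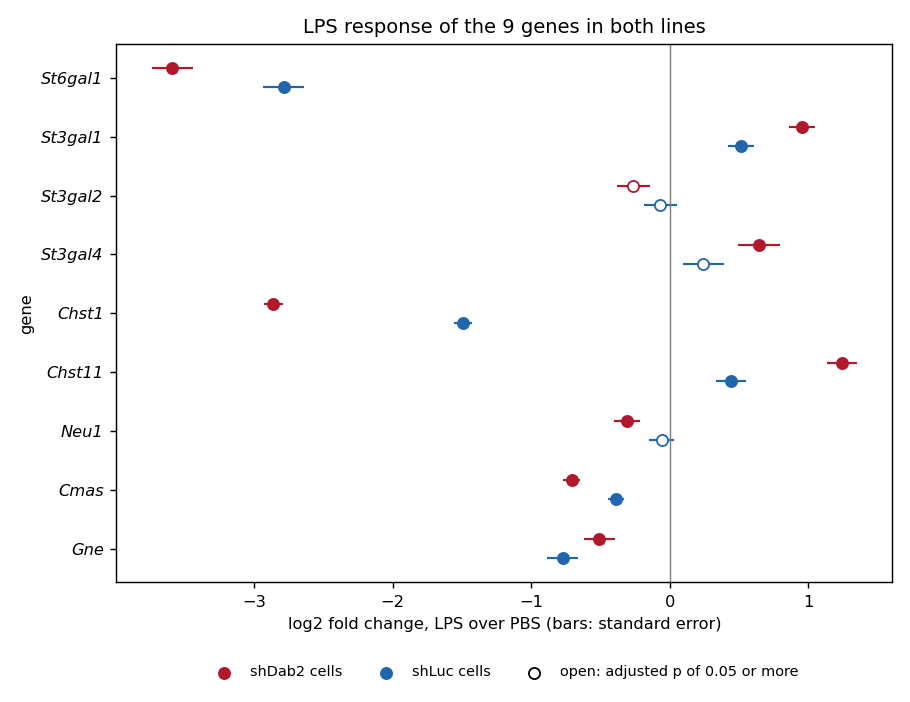
Log2 fold change of LPS over PBS for each member in shDab2 cells and in shLuc cells, with bars for the standard error and open symbols for an adjusted p of 0.05 or more. St6gal1 (-3.59 and -2.79) and Chst1 (-2.86 and -1.49) had the most negative values in both lines.

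Promoters are shown for St6gal1, Chst1 and Chst11, the members with the most negative and the most positive fitted LPS changes in shDab2 cells. RefSeq's GRCm38.p6 table, with 250 bases before to 50 after each start, had entries for 7 of the 9 members and none for St3gal1 and St3gal2. Capitals mark matches to the Sp1 motif GGGCGG on either strand. St6gal1 has 3 listed starts, of which the one farthest upstream is printed (chr16:23224490-23224789, plus strand), and which transcript the probe reads is not given in the sources used here. Chst1 is chr2:92600867-92601166 and Chst11 chr10:82985247-82985546, both on the plus strand. Both of these windows lie inside the gene positions given above, downstream of the first base, so they need not cover every start of these genes.
St6gal1: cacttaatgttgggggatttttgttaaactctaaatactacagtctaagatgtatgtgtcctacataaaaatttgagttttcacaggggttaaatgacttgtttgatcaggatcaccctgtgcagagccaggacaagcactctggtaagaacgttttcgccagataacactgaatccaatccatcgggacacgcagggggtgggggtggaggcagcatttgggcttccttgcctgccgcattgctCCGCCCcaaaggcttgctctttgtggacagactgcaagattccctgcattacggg
Chst1: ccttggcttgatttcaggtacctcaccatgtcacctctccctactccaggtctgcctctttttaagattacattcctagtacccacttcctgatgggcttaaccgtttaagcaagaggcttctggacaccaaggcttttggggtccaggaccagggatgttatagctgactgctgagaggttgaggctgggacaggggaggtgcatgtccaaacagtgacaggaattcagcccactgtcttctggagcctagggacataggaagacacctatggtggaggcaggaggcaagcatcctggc
Chst11: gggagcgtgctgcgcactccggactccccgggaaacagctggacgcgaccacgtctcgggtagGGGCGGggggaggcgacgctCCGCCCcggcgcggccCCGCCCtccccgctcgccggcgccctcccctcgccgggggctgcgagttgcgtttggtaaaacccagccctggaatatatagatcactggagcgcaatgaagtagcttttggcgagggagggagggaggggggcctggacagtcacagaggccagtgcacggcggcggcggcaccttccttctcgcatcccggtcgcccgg
The windows differed in base composition. That of Chst11 held 34 CpG and 71.0% GC and 3 Sp1 matches, that of Chst1 held 1 CpG and 52.7% GC, and that of St6gal1 held 7 CpG and 48.0% GC and 1 Sp1 match. All promoters in the table had a median of 7 CpG and 52.7% GC. Both strands were searched for Sp1 (GGGCGG, in 35.7% of 32851 promoters), the PU.1 core (GAGGAA, 28.3%), the interferon regulatory factor motif (GAAANNGAA, 8.56%), AP-1 (TGANTCA, 7.81%) and the kB consensus (4.51%). None of these letters occurred in the Chst1 window, and the windows printed for St6gal1 and Chst11 held only Sp1 matches. Of the St6gal1 windows not printed, the one farthest downstream (chr16:23290220-23290519) held 1 AP-1 match, and the other held none of these motifs. A match is a description of the sequence, and no match says only that these letters are not in the window.

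Between the lines with PBS, 2 members were called higher in shDab2 than in shLuc cells (St3gal1 and Chst1), 1 lower (St3gal4) and 6 not. Of all genes, 5.65% were called higher and 6.40% lower. Without normalization, which raised the median of all genes by 0.13, 5 members were higher and 0 lower. Chst1 had the largest difference. From the array values above it was 2.23-fold higher in resting shDab2 cells (log2 fold change 1.12, SE 0.068, adjusted p = 3.4e-06 from limma). St3gal1 was 1.45-fold higher (0.39, SE 0.091, adjusted p = 0.018), a call lost without shLuc PBS replicate 2 (0.29, adjusted p = 0.15) and without shDab2 PBS replicate 1 (adjusted p = 0.062) or 2 (adjusted p = 0.13). St3gal4 was 1.64-fold lower (-0.66, SE 0.15, adjusted p = 0.015). This call was lost without normalization (-0.36, adjusted p = 0.12), with a robust variance (adjusted p = 0.11), without shLuc PBS replicate 1 or 2 (adjusted p = 0.077 and 0.09) and without shDab2 PBS replicate 2 (-0.59, adjusted p = 0.11).

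For St6gal1 both shDab2 arrays with PBS lay above both shLuc arrays with PBS, but the difference did not pass (log2 fold change 0.42, SE 0.15, adjusted p = 0.12 from limma). It passed with an offset of 100 (0.39, adjusted p = 0.027) and without normalization (0.69, adjusted p = 0.0035), which raised the median of all genes by 0.13. It also passed without shDab2 LPS replicate 1 or 2, with the estimate unchanged at 0.42. Those arrays enter this comparison of St6gal1 only through the shared estimate of spread. Over all alternatives its adjusted p ran from 0.0035 to 0.48. Without normalization Neu1 (0.39, adjusted p = 0.0084) and Cmas (0.31, adjusted p = 0.0023) passed as well. With normalization the log2 fold changes of Neu1, Cmas, Gne, Chst11 and St3gal2 lay between -0.05 and 0.11, with adjusted p values from 0.59 to 0.91.

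With LPS, 2 members were higher in shDab2 than in shLuc cells (St3gal1 and Chst11), 2 were lower (Chst1 and Cmas) and 5 were not called. Of all genes, 9.07% were called higher and 11.6% lower. Without normalization 2 members were higher and 0 lower. This comparison shares the shLuc and shDab2 arrays with LPS with the LPS comparisons. St3gal1 was 2-fold higher (log2 fold change 0.84, SE 0.091, adjusted p = 7.9e-05 from limma), with no overlap between the lines, and Chst11 was at least 2.41-fold higher (0.85, SE 0.11, adjusted p = 0.00028). Both calls held under each alternative.

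Macrophage markers also differed between the lines. Adgre1, which encodes F4/80, averaged 2572 ± 208 in shDab2 cells and 570.7 ± 54 in shLuc cells with LPS (2.08 on the log2 scale, adjusted p = 5.1e-08 in limma), and 1269 ± 37.2 in shDab2 cells and 430.1 ± 20.8 in shLuc cells with PBS (1.46, adjusted p = 1.2e-06; SD, n = 2 each). Of the 7 measured, 3 were higher (Adgre1, Fcgr1 and the dim Mertk) and 2 lower (Csf1r, -0.64, and Cd68, -0.40) in shDab2 cells with LPS, and 1 was higher and 1 lower (Itgam, -0.44) with PBS. Their summed level was 63043.6 to 69848.5 in shDab2 cells and 50567.9 to 84056.4 in shLuc cells with LPS, and 56732.2 to 57148.9 in shDab2 cells and 61694.4 to 63505.4 in shLuc cells with PBS. Their part in the members' differences was not tested.

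Chst1, which was higher in shDab2 cells with PBS, was 1.22-fold lower in them with LPS (log2 fold change -0.25, SE 0.068, adjusted p = 0.028 from limma). That call was lost without normalization (-0.14, adjusted p = 0.24), without a variance trend (adjusted p = 0.052), without shLuc LPS replicate 1 or 2 (adjusted p = 0.08 and 0.13) and without shDab2 LPS replicate 2 (-0.17, adjusted p = 0.17). Cmas was 1.22-fold lower (-0.29, SE 0.058, adjusted p = 0.0053), and missed the threshold without normalization (-0.14, adjusted p = 0.12). St6gal1 was dim in both lines with LPS and gets no ratio (log2 fold change -0.38, adjusted p = 0.12), and Gne likewise (0.22, adjusted p = 0.26). St3gal4 did not pass either (-0.26 on the log2 scale, adjusted p = 0.3). For both St6gal1 and St3gal4 the value turned on which shDab2 array with LPS was kept. Without replicate 1 of that group it was -0.09 (adjusted p = 0.64) for St6gal1 and 0.03 (adjusted p = 0.89) for St3gal4, and without replicate 2 it was -0.68 (adjusted p = 0.0011) and -0.56 (adjusted p = 0.0036).

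**Figure D3:**
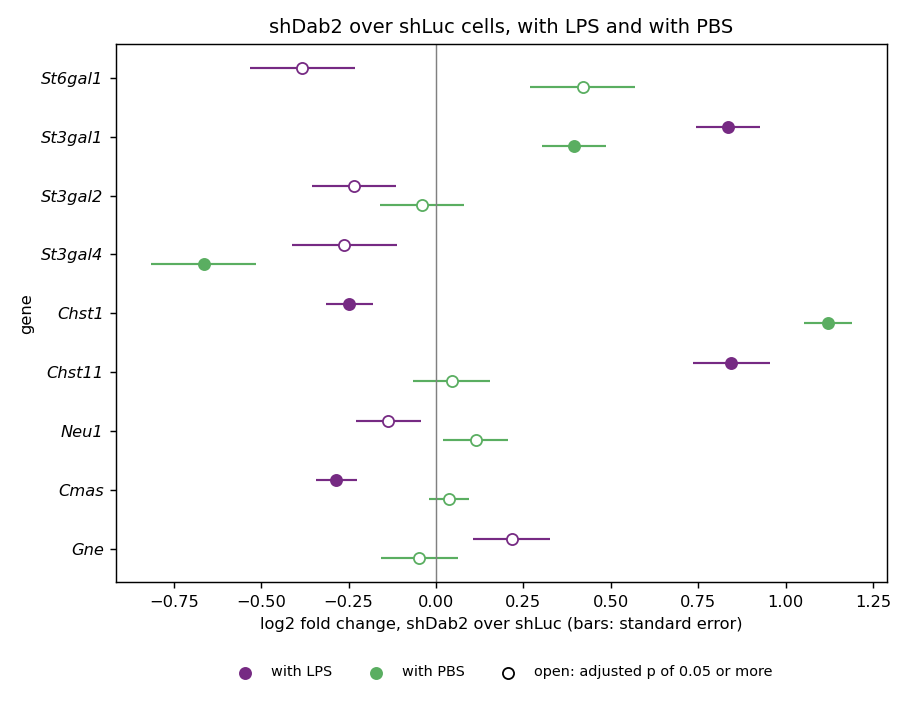
Log2 fold change of shDab2 over shLuc cells for each member, with LPS and with PBS, with bars for the standard error and open symbols for an adjusted p of 0.05 or more. Chst1 had 1.12 with PBS and -0.25 with LPS, and St3gal1 was positive in both.

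The LPS response itself differed between the lines for 2 members. The response of Chst1 was more negative in shDab2 cells by -1.37 on the log2 scale (SE 0.097, adjusted p = 1.8e-05 from limma), and that of Chst11 more positive by 0.80 (SE 0.16, adjusted p = 0.013). The authors' lists also show the larger fall of Chst1 in shDab2 cells, so its p-value is given as a description. Of all genes, 2.72% had a more positive and 3.08% a more negative response in shDab2 cells. Without normalization 0 members had a more positive and 3 a more negative response. The Chst1 difference was -1.49 to -1.29 over the alternatives and called in each. That of Chst11 was lost without normalization (0.58, adjusted p = 0.058), without shLuc PBS replicate 1 (adjusted p = 0.054) and without shDab2 PBS replicate 1 (0.69, adjusted p = 0.071).

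For 3 more members the difference lay near the threshold. It was -0.80 (SE 0.21, adjusted p = 0.06 from limma) for St6gal1, -0.32 (SE 0.082, adjusted p = 0.051) for Cmas and 0.44 (SE 0.13, adjusted p = 0.087) for St3gal1. St6gal1 passed without normalization (-0.99, adjusted p = 0.0088), with an offset of 100 (-0.61, adjusted p = 0.028), without dim probes (adjusted p = 0.036) and without shDab2 LPS replicate 1 (-0.51, adjusted p = 0.045) or 2 (-1.10, adjusted p = 0.0011). Cmas passed without normalization (-0.45, adjusted p = 0.0059), without dim probes (adjusted p = 0.027), with a robust variance (adjusted p = 0.037) and with the mean of probes (adjusted p = 0.044). St3gal1 passed without dim probes (adjusted p = 0.042) and without shLuc PBS replicate 2 (0.55, adjusted p = 0.049). Over all alternatives the adjusted p ran from 0.0011 to 0.19 for St6gal1, from 0.0059 to 0.18 for Cmas and from 0.042 to 0.37 for St3gal1. For St3gal4 the difference was 0.40 (adjusted p = 0.4), with 0.70 (adjusted p = 0.014) without shDab2 LPS replicate 1 and 0.10 (adjusted p = 0.76) without replicate 2. For St3gal2, Neu1 and Gne it was -0.19, -0.25 and 0.27, with adjusted p values of 0.66, 0.41 and 0.5.

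Chst1 was highest in shDab2 cells with PBS, followed by shLuc with PBS, shLuc with LPS and shDab2 with LPS, and no neighbours in that order overlapped. St6gal1 was likewise highest in shDab2 cells with PBS, without overlap with shLuc cells with PBS, and its groups with LPS, all under 50, have no order here. St3gal1 was highest in shDab2 cells with LPS, followed by shLuc with LPS, shDab2 with PBS and shLuc with PBS, again without overlap between neighbours. Chst11 was above 50 in shDab2 cells with LPS alone, and the other groups are not ordered. For Cmas the groups with PBS overlapped at the top, and shLuc with LPS and then shDab2 with LPS lay apart below them. For Gne the groups with PBS overlapped, and those with LPS lay under 50 and have no order. For Neu1 and St3gal2 neighbours among the upper 3 groups overlapped and shDab2 cells with LPS lay apart as the lowest. St3gal4 was highest in shLuc cells with LPS and lowest in shDab2 cells with PBS, and its middle groups overlapped.

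The genes whose log2 values most resembled St6gal1 over the 8 arrays, among 387 with a mean of at least 150 and a comparable range, were Abcg1 (Pearson r = 0.9965), Susd3 (0.9958), Cd101 (0.9947), Bmyc (0.9945) and Add3 (0.994). Their log2 fold changes with LPS in shDab2 cells ran from -3.43 (Cd101) to -1.86 (Add3). For St3gal1, with 2743 such genes, they were Triobp (0.9954), Mthfd2l (0.9928), Dock10 (0.9916), Pgap2 (0.9912) and Rassf4 (0.9904). The arrays fall into separate groups that share treatment and line, so these correlations only describe likeness of pattern.

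Of the 117 other measured genes of 6 lists around these enzymes, 65 reached 50 in some group. With LPS in shDab2 cells 19 were higher and 26 lower (16.2% and 22.2%, against 13.4% and 18.0% of all genes), and in shLuc cells 19 and 15 (16.2% and 12.8%, against 11.6% and 15.7%). The balance depended on scaling: without normalization it was 11 and 41 in shDab2 cells and 16 and 23 in shLuc cells. Their median log2 fold changes were 0.02 and 0.03. The counts of each list below are to be set against the same shares of all genes.

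Of the 16 other sialyltransferases, 2 rose and 2 fell with LPS in shDab2 cells, and 1 rose and 2 fell in shLuc cells. St8sia4, a polysialyltransferase, averaged 891.3 ± 6.98 with LPS and 2731 ± 242 with PBS in shDab2 cells (SD, n = 2 each; log2 fold change -1.56, adjusted p = 1.1e-08 from limma). In shLuc cells it averaged 1114 ± 9.94 with LPS and 3500 ± 150 with PBS (-1.61, adjusted p = 1.6e-08). St3gal6, which acts on the same kind of acceptor as St3gal4, rose by 0.53 log2 units (adjusted p = 3.1e-05) in shDab2 cells and 0.59 (adjusted p = 2.1e-05) in shLuc cells.

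Of 17 genes of sialic acid supply, modification and removal, 3 rose and 4 fell with LPS in shDab2 cells, and 4 rose and 3 fell in shLuc cells. Nanp, the phosphatase that yields free sialic acid between the steps of Gne and Cmas, fell by 1.31 on the log2 scale (adjusted p = 3e-07 from limma) in shDab2 cells and by 0.91 (adjusted p = 9.7e-06) in shLuc cells. Npl, the lyase that breaks sialic acid down, rose by 1.201 (adjusted p = 1.3e-07) and 1.13 (adjusted p = 4e-07) on that scale. Nans, the synthase between Gne and Nanp, was also called lower in both lines, as was Glb1, with Slc17a5 lower in shDab2 cells only. The other genes called higher were Renbp in both lines, Gnpnat1 in shDab2 cells (0.47, adjusted p = 0.00033), and Slc35a1 (0.85, adjusted p = 0.00079) and Gfpt1 (0.43, adjusted p = 0.00091) in shLuc cells.

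Of 29 other sulfotransferases measured, 1 rose and 5 fell with LPS in shDab2 cells, and 1 rose and 3 fell in shLuc cells. Chst10, which makes the sulfated HNK-1 epitope, fell by 1.10 on the log2 scale (adjusted p = 1.1e-05 from limma) and by 1.15 (adjusted p = 1.3e-05), and Hs3st3b1, a heparan sulfate enzyme, rose by 0.53 log2 units (adjusted p = 4.9e-05) and 0.70 (adjusted p = 9.2e-06). Of 16 genes of sulfate donor supply and sulfate removal, 1 rose and 9 fell in shDab2 cells (median log2 fold change -0.37), and 1 rose and 5 fell in shLuc cells (-0.08). Of those that fell in shDab2 cells, Slc26a11, Sulf2 and Ids lay under 50 in both groups, where levels are poorly measured. Sgsh, a lysosomal sulfatase of heparan sulfate, averaged 65.2 ± 1.5 with LPS and 368.8 ± 37.3 with PBS in shDab2 cells (-1.86, adjusted p = 1.7e-08), and 120.9 ± 7.34 with LPS and 388.3 ± 1.64 with PBS in shLuc cells (-1.36, adjusted p = 4.2e-07; SD, n = 2 each). Papss1, which makes the sulfate donor, was called lower in both lines, and Slc35b3, a Golgi carrier of that donor, rose by 0.29 log2 units (adjusted p = 0.0013) and 0.49 (adjusted p = 4.4e-05).

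Of 23 genes that build the acceptor chains, 8 rose and 5 fell with LPS in shDab2 cells, and 8 rose and 1 fell in shLuc cells. Xylt2, which starts glycosaminoglycan chains, averaged 1084 ± 79.2 with LPS and 216.9 ± 1.86 with PBS in shDab2 cells (SD, n = 2 each; log2 fold change 2.09, adjusted p = 7.7e-09 from limma), with 2.11 (adjusted p = 1.4e-08) in shLuc cells. Gcnt1, which branches O-glycans, fell by 0.85 on the log2 scale (adjusted p = 2.6e-06) in shDab2 cells, and Mgat2, which branches N-glycans, fell by 0.29 (adjusted p = 0.0023) in shLuc cells. Of 16 measured binding proteins, 4 rose and 1 fell in each line. Siglec1, the macrophage receptor for sialic acid, averaged 1049 ± 50.4 with LPS and 132.4 ± 20.8 with PBS in shDab2 cells (2.60, adjusted p = 1e-09), and 851.1 ± 15.3 with LPS and 165.9 ± 7.34 with PBS in shLuc cells (2.06, adjusted p = 1.4e-08; SD, n = 2 each). Cd33, a Siglec, fell by 0.87 on the log2 scale (adjusted p = 7.9e-05; at least 1.53-fold lower) in shDab2 cells and by 0.67 (adjusted p = 0.00083) in shLuc cells, where both groups lay under 50.

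**Figure D4:**
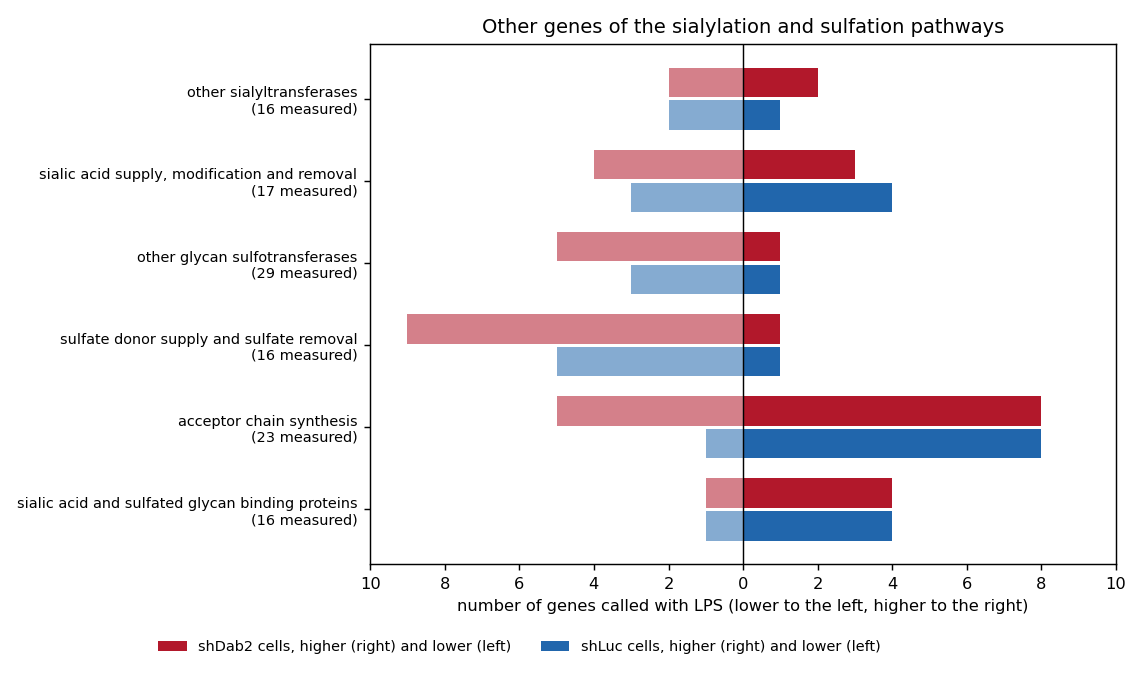
Number of genes called with LPS in each of the 6 lists, higher to the right and lower to the left, in shDab2 cells and in shLuc cells. The list of sulfate donor supply and sulfate removal had 9 of 16 genes lower in shDab2 cells, 3 of them under 50 with and without LPS, and 5 in shLuc cells. Of all genes, 13.4% were called higher and 18.0% lower in shDab2 cells, and 11.6% and 15.7% in shLuc cells.

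Between the lines, 6 of these 117 genes were higher and 8 lower in shDab2 cells with PBS (5.13% and 6.84%, against 5.65% and 6.40% of all genes), and 30 were higher and 3 lower without normalization. With LPS 11 were higher and 22 lower (9.40% and 18.8%, against 9.07% and 11.6%), and 15 and 14 without normalization. Among called genes, the most positive with PBS were Cd33 (log2 fold change 0.47, adjusted p = 0.019 from limma), Sulf2, dim in both lines (0.43, adjusted p = 0.039), and Gfpt1, which feeds amino sugar synthesis (0.38, adjusted p = 0.0057), and the most negative were Chst10 (-0.61, adjusted p = 0.0045), Chst3, which sulfates chondroitin at another position than Chst11 (-0.60, adjusted p = 0.0011), and Mgat2 (-0.48, adjusted p = 0.00028). With LPS, Lgals9, which encodes galectin-9, averaged 1878 ± 13.9 in shDab2 cells and 893.2 ± 22.4 in shLuc cells (1.03, adjusted p = 1.1e-06), and Chst3 averaged 73.1 ± 0.265 in shDab2 cells and 235.6 ± 22.3 in shLuc cells (-1.21, adjusted p = 3.5e-06; SD, n = 2 each). Nagk (0.50, adjusted p = 0.00075) and B4galt5 (0.47, adjusted p = 0.00078) were also higher, and Arsb, a lysosomal sulfatase (-0.76, adjusted p = 2e-05), and Nanp (-0.70, adjusted p = 0.00015) lower. The LPS response differed between the lines for 5 genes in each direction (4.27% each, against 2.72% and 3.08%). More positive in shDab2 cells were the binding proteins Lgals9, Siglec1 and Lgals8 and the galactosyl- and N-acetylglucosaminyltransferases B4galt5 and B3gnt2, and more negative were Nans, Chst3, Arsb, Sgsh and Gcnt1.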

How the data were processed

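RNA of RAW264.7 cells was measured on 8 single-colour arrays in 4 groups of 2, grouped by the sample labels. The deposited table holds linear probe intensities from which the authors had subtracted the background. The method of subtraction is not given in the sources used here, and the values, from -11 to 65470, were not normalized between arrays. A deposited table of group means was not used. Intensities were quantile-normalized, an offset of 50 was added and log2 was taken. limma 3.58.1 in R 4.3.3 fitted a mean per group with a variance trend to all arrays (4 residual and 6.7 prior degrees of freedom). Each of the 5 comparisons was adjusted on its own by Benjamini-Hochberg over 26423 probes, with calls at an adjusted p under 0.05. The fit was tested on simulated data. A gene was represented by its brightest probe. Of the probes, 21876 had 1 symbol and 4547 none, which stayed in the fit. Listed genes without a probe by that symbol were not analysed here. Positions came from RefSeq's GRCm38 annotation and promoters from its GRCm38.p6 table. The members and lists were chosen with earlier results of these data known. Named genes were every member, Dab2, the gene with the largest rise and fall called in each list with LPS, the 3 largest among called genes in each direction between the lines, and the 5 genes most like St6gal1 and like St3gal1, the member with the largest LPS rise in shLuc cells on the log2 scale with the offset of 50 (0.52, against 0.44 for Chst11, which led with an offset of 16, a common 75th percentile or no normalization). Nans, the other called genes of its list, Papss1 and the genes listed for the difference in response were named after their values were seen. Alternatives were no normalization, a common 75th percentile, offsets of 16 and 100, no dim probes, no trend, a robust variance, the mean of probes, an adjusted p under 0.01, a replicate block and each array left out. Precision is set by how few arrays there are, as no reads are counted. Quantile normalization removes any change in total RNA per cell.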

Additional observations from a re-analysis of the deposited data

Results flagged for a closer look

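The LPS response of Chst1 differed between the lines by -1.37 on the log2 scale (SE 0.097, adjusted p = 1.8e-05 from limma's interaction term), with log2 fold changes of -2.86 in shDab2 cells and -1.49 in shLuc cells. That p-value is a description, since the authors' lists show the same unequal fall. The LPS response of Chst11 differed by 0.80 (SE 0.16, adjusted p = 0.013), with 1.24 in shDab2 cells and 0.44 in shLuc cells, and all arrays but those of shDab2 cells with LPS lay under 50. For Chst1 the larger part of the difference lies in the levels with PBS, which averaged 2190 in shDab2 and 980.3 in shLuc cells (log2 fold change 1.12). With LPS the means were 258.9 and 316.2 (-0.25). What accounts for either difference was not tested.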

How the results depend on the processing

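Of 765 values of single members under the alternatives, 712 stayed on their side of the threshold, 28 no longer passed, 25 newly passed and 0 reversed a call. Some of the 712 that were not called changed sign. The numbers of called members and other pathway genes stayed within 1.5 times with LPS in both lines. For shDab2 over shLuc cells with PBS, 3 members were called, against 5 without normalization, 1 at an adjusted p under 0.01 and 1 to 4 with an array left out. The other pathway genes numbered 14, against 33 without normalization, 6 at an adjusted p under 0.01 and 7 to 14 with an array left out. With LPS 4 members were called, and 2 without normalization. For the difference in LPS response 2 members were called, against 5 without dim probes, 1 at an adjusted p under 0.01 and 1 to 4 with an array left out. The other pathway genes numbered 10, against 16 without normalization (3 more positive and 13 more negative), 6 at an adjusted p under 0.01 and 7 to 13 with an array left out. The stricter threshold and the removal of dim probes change what is tested or called by construction. Leaving out an array of a group outside a comparison keeps its estimates and acts only through the shared spread. For the others the cause was not tested. Same-numbered arrays shared only a number, with correlations of their deviations from -0.06 to 0.106. With the replicate block 8, 6, 3, 4 and 3 members were called in the 5 comparisons, St6gal1 being the added call in the last (-0.80, adjusted p = 0.038), and 43, 36, 12, 35 and 10 other pathway genes. The level of about 50 limits Chst11, Gne and St6gal1, since ratios against dimmer groups are only bounds.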
